A study of Bos taurus with 12 samples.

Results

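The myostatin and insulin-like growth factor (IGF) axis was followed in the biceps brachii of bulls given growth-promoting drugs. Its 9 listed genes were MSTN, FST, ACVR2B, IGF1, IGF2, IGF1R, IGFBP3, IGFBP4 and IGFBP5, each taken as every probe whose gene name, gene number, accession or description in the array files maps to it. Of the 9 genes, 8 had a probe and all 8 were tested, among 19795 genes named by a probe and 13716 tested. No probe mapped to ACVR2B, the activin receptor that myostatin binds, so its level was not analysed here.

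Muscle size is held between signals that limit growth and signals that drive it. Myostatin is a secreted TGF-beta family ligand made by muscle fibres that limits their growth through activin receptors and SMAD proteins, and animals that lack it, among them double-muscled cattle, carry enlarged muscles. Follistatin, the product of FST, binds myostatin and activins and blocks them. IGF1 and IGF2 act mainly through the receptor IGF1R, which drives protein synthesis and cell growth by way of phosphoinositide 3-kinase, and the IGF binding proteins hold the ligands outside the cell and set how much reaches the receptor.

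The 12 animals were male cattle aged 18 to 20 months, with 4 arrays in each of 3 groups, 1 array an animal. The dexamethasone plus clenbuterol group was fed dexamethasone, a synthetic glucocorticoid, at 0.66 mg per head for 21 days together with clenbuterol, a beta-adrenergic agonist, for 28 days. The clenbuterol dose was raised weekly, with 2 mg per animal at first, then 4 mg, then 6 mg until the end. The dexamethasone group was fed 0.75 mg of dexamethasone per head for 42 days, and the control group was untreated. Bulls given both drugs therefore also received less dexamethasone, for a shorter time, than those given dexamethasone alone. The interval from last feeding of a drug to slaughter was not given in the sources used here. The hybridised samples were the 12 of best RNA quality among 24 animals, 8 in each group.

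RNA was measured on 1-colour Agilent arrays, whose small number sets the precision. Of all spots, 53.2% to 68.7% per array were well above background by the scanner software's flag. Levels are log2 signal relative to the array's 75th percentile, so a value of 0 is a bright spot and negative values are dimmer ones, and levels of different probes cannot be set against each other. The 10 skeletal muscle markers with a probe, such as ACTA1 and CKM, were above background on all 12 arrays. The 7 arrays of scan day 2 (3 dexamethasone plus clenbuterol, 3 dexamethasone and 1 control) had a negative-control signal of 98.6 to 123, against 59.5 to 73.1 on the other 5 arrays (1, 1 and 3 of these groups), so scan day and group are partly mixed. Of those 5, the 3 controls were scanned on day 1, the dexamethasone array on day 3 and the combination array on day 4. Values given for the other scan days therefore compare arrays of different days, and the scan day block treats these days as 1 level. No dexamethasone plus clenbuterol array shared a slide with another group (slides 3 and 5, against slides 2 and 4 for dexamethasone and 1 and 2 for control), so in that group slide and treatment cannot be told apart. In a tissue sample, fewer cells of a type and less RNA per cell cannot be told apart.

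**Figure D1:**
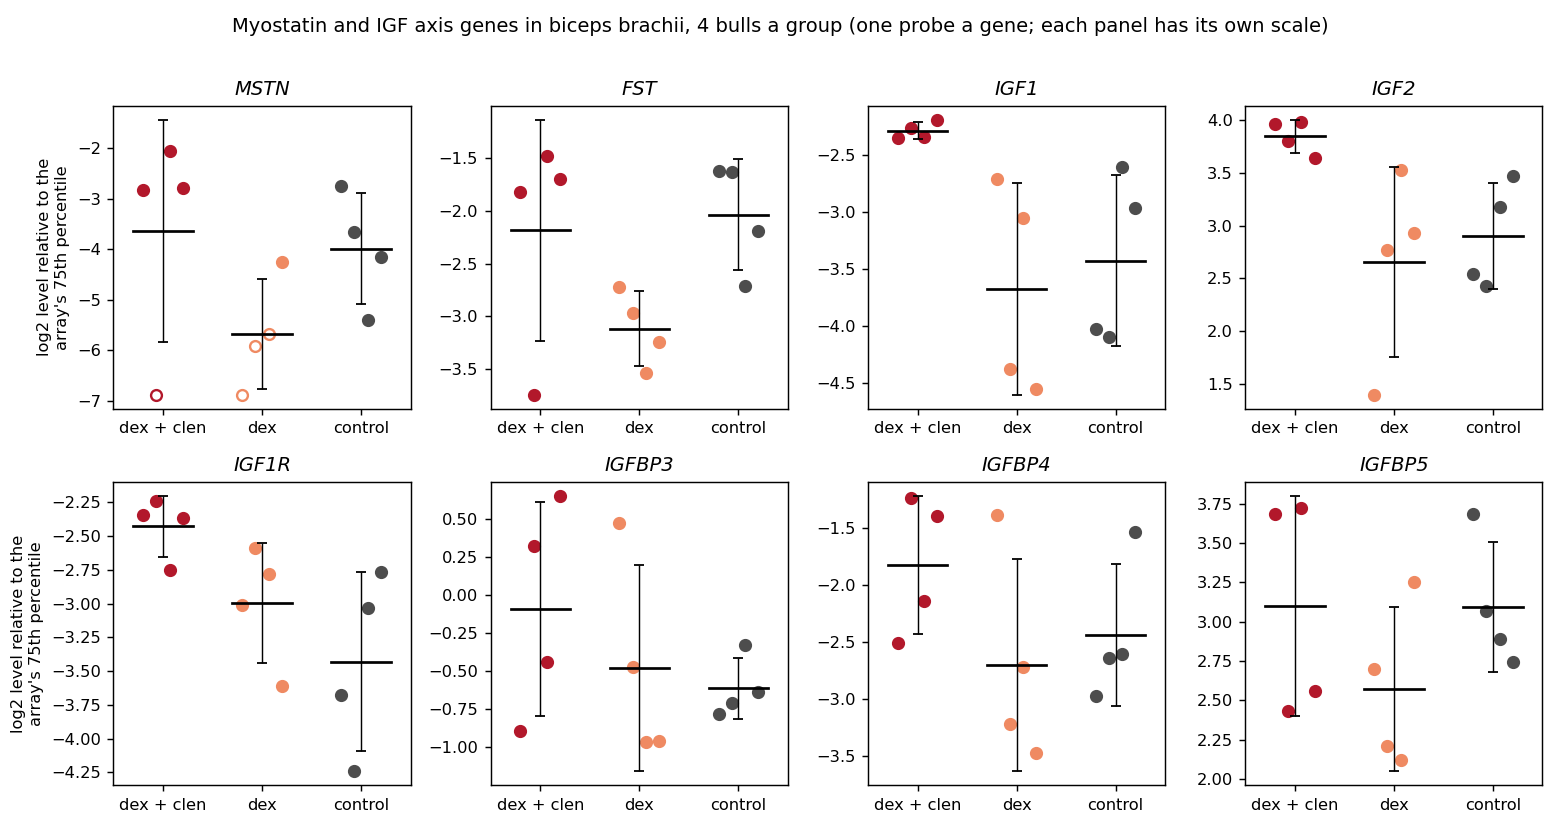
Log2 level of the 8 measured genes relative to each array's 75th percentile (vertical axes, one scale per panel) in dexamethasone plus clenbuterol (dex + clen), dexamethasone (dex) and control bulls, with 1 point per animal, the group mean as a wide bar and ± 1 SD as whiskers (n = 4). Open points were not well above background. The dexamethasone plus clenbuterol points of IGF1 and IGF2 lie close together and above all other points of those panels, while MSTN and FST each have 1 low point in that group.

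MSTN and its antagonist FST were both lowest on average in the dexamethasone group, and neither difference passed the test. The MSTN probe, listed in the files under the older symbol GDF8, was dim. It was well above background on 3 of 4 dexamethasone plus clenbuterol arrays, 1 of 4 dexamethasone arrays and 4 of 4 control arrays. Over all probes, the lowest level so flagged was -6.30 to -4.90 on the arrays of scan day 2 and -7.05 to -6.46 on the others. These counts are therefore partly mixed with scan day. MSTN levels were -2.82, -6.88, -2.04 and -2.78 in dexamethasone plus clenbuterol bulls 1 to 4. In dexamethasone bulls they were -6.88, -5.92, -5.67 and -4.25, and in control bulls -2.75, -3.65, -5.39 and -4.15. Bull 2 of the dexamethasone plus clenbuterol group thus sat with the lowest dexamethasone animal, while its 3 group mates were among the highest of all, and every pair of groups overlapped.

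Group means of MSTN were -3.63 ± 2.20 in the dexamethasone plus clenbuterol group, -5.68 ± 1.09 in the dexamethasone group and -3.99 ± 1.10 in controls (SD, n = 4 each). The dexamethasone minus control log2 change was -1.69 ± 0.95 (SE, limma adjusted p = 0.507). The dexamethasone plus clenbuterol minus dexamethasone change was 2.05 ± 0.95 (limma adjusted p = 0.459), and that against controls 0.36 ± 0.95 (limma adjusted p = 0.910). The 95% intervals ran from -3.77 to 0.38, from -0.028 to 4.13 and from -1.72 to 2.43, so changes of several fold either way against controls remain within them for the combination. The spread within groups was 1.55 (pooled SD, log2), larger than that of 99.4% of tested genes, whose median was 0.35. Without bull 2 of the combination the change against dexamethasone was 3.13 and that against controls 1.44. With another background correction (normexp, offset 50) the dexamethasone minus control change was -0.72 ± 0.30 (SE, limma adjusted p = 0.404), so the SE was smaller as well as the change. The combination minus dexamethasone change was then 0.99. Within scan day 2 the dexamethasone minus control change was -2.002. Between arrays of the other scan days, with 1 dexamethasone array, it was -0.32, and with scan day as a block -1.15.

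FST was measured by a pair of probes, and both gave the same picture. On the brighter probe, above background on all 12 arrays, levels were -1.82, -3.75, -1.48 and -1.69 in dexamethasone plus clenbuterol bulls. Dexamethasone bulls had -2.72, -2.97, -3.54 and -3.25, and control bulls -1.62, -1.63, -2.72 and -2.19. All 4 dexamethasone values lay below all 4 control values, though the nearest pair both round to -2.72, and bull 2 of the combination was again the low one.

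Relative to controls, the FST log2 change in dexamethasone bulls was -1.08 ± 0.45 (SE, 2.12-fold lower, limma unadjusted p = 0.0323, adjusted p = 0.347). FST was the 1 member of 8 with all values below those of controls and the 1 with an unadjusted p under 0.05, where 3.92% and 12.3% of all tested genes did so. At an adjusted p under 0.05 limma called 0 of 8 members in this comparison and 0.612% of all genes. The dimmer probe gave -1.16 ± 0.56 (limma adjusted p = 0.426), also with no overlap. The combination minus dexamethasone change was 0.93 ± 0.45 (limma adjusted p = 0.470), and 1.45 without bull 2. Against controls the combination differed by -0.15 ± 0.45 (limma adjusted p = 0.919), and by 0.37 without bull 2, the opposite direction. Within scan day 2 the dexamethasone minus control change was -0.89, and between arrays of the other days it was -1.26.

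The fibroblast markers were lower in dexamethasone bulls as well. All 8 were tested, and their mean log2 level ran from 0.985 to 2.21 in dexamethasone plus clenbuterol, from 0.075 to 1.85 in dexamethasone and from 1.88 to 2.30 in control arrays. The 7 tested leukocyte markers, with ITGAM below the filter, ran from -2.76 to -2.12, from -3.79 to -1.79 and from -2.15 to -1.62 over the same groups. The part of these cell types in the FST values was not tested.

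MSTN and FST also varied together from animal to animal. Over the 12 arrays their levels correlated with Pearson r = 0.847 (permutation p = 0.00136, adjusted 0.0381 over the 28 pairs of members) and Spearman rho = 0.867 (permutation p = 0.000520, adjusted 0.0146). Leaving out the 2 arrays farthest from the median of MSTN gave r = 0.865, removing the group means 0.793, and the 7 arrays of scan day 2 alone 0.880, while the other days held only 5 arrays. FST ranked 20 among 13715 other genes by its r with MSTN, and MSTN ranked 18 for FST. Arrays share depth of signal and cell makeup across genes, and 4 of the 12 MSTN values were not well above background.

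**Figure D2:**
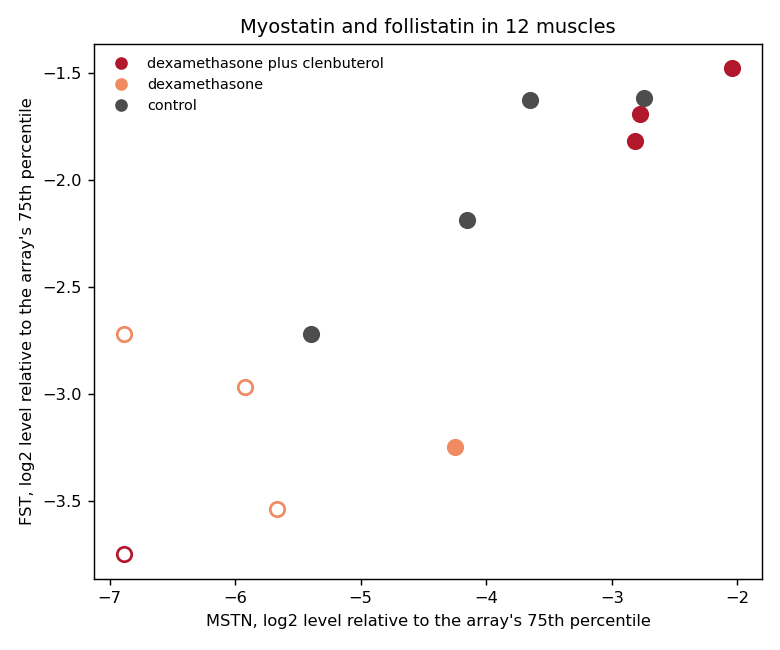
FST (vertical axis) against MSTN (horizontal axis), both as log2 level relative to the array's 75th percentile, with 1 point for each of the 12 muscles coloured by group. Open points had MSTN not well above background. Points run from low in both genes (bull 2 of dexamethasone plus clenbuterol and the dexamethasone bulls) to high in both, with r = 0.847.

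IGF ligands and the IGF receptor separated bulls given both drugs from controls. IGF1, IGF2 (on the brighter of its probes) and IGF1R were 2.20-fold, 1.93-fold and 2.00-fold higher than in controls, with no overlap between the groups, and none passed the test over all genes. They were 3 members of 8 with an unadjusted p under 0.05 and 3 of 8 with all values above those of controls, where 12.1% of all genes had such a p and 4.51% lay wholly above. At an adjusted p under 0.05 limma called 0 of 8 members in this comparison and 0.0437% of all genes. With slide as a random block the log2 changes were 1.14, 0.92 and 0.99 (limma adjusted p = 0.453, 0.489 and 0.368). This fit cannot separate slide from treatment, because no slide of the combination held another group.

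IGF1, the liver and muscle growth factor that growth hormone induces, was above background on all arrays. Its levels were -2.35, -2.26, -2.34 and -2.19 in dexamethasone plus clenbuterol bulls. Dexamethasone bulls had -2.71, -4.38, -3.05 and -4.56, and control bulls -4.03, -4.10, -2.61 and -2.97. The combination values spanned far less than those of either other group (SD 0.075, against 0.93 in dexamethasone and 0.75 in control bulls) and all lay above both. This difference in spread was not tested.

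For IGF1 the combination minus control log2 change was 1.14 ± 0.44 (SE, limma unadjusted p = 0.0227, adjusted p = 0.350). Against dexamethasone it was 1.39 ± 0.44 (2.62-fold, limma unadjusted p = 0.00783, adjusted p = 0.283). Dexamethasone alone differed from controls by -0.25 ± 0.44 (limma adjusted p = 0.871), with a 95% interval from -1.20 to 0.70. Against controls the change was 0.65 within scan day 2, where there was 1 control, and 1.39 between arrays of the other days. Against dexamethasone it was 1.06 and 2.37, the second from 1 array a group. Normexp background correction gave 0.59 against controls and 0.73 against dexamethasone.

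IGF2, the ligand of fetal growth and of muscle cell differentiation, had the same order of groups on its brighter probe. Levels were 3.96, 3.81, 3.98 and 3.65 in dexamethasone plus clenbuterol bulls, 1.40, 2.77, 3.52 and 2.93 in dexamethasone bulls, and 2.54, 2.43, 3.18 and 3.47 in control bulls. All 4 combination values lay above all other values, and bull 1 of the dexamethasone group was the lowest. The change was 0.95 ± 0.38 against controls (SE, limma unadjusted p = 0.0297, adjusted p = 0.367) and 1.19 ± 0.38 against dexamethasone (2.28-fold, limma unadjusted p = 0.00902, adjusted p = 0.289). Dexamethasone alone differed from controls by -0.25 ± 0.38 (limma adjusted p = 0.848).

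The other IGF2 probe did not show this. It was dim, above background on 7 of 12 arrays, with levels from -4.87 to -4.40 in the combination, from -5.60 to -4.11 in dexamethasone and from -4.77 to -4.24 in control bulls. Its changes were -0.097 ± 0.30 against controls and 0.077 ± 0.30 against dexamethasone (limma adjusted p = 0.920 and 0.951). Averaging the probes gave 0.42 and 0.63 for IGF2. On the brighter probe, the change against controls was 0.45 within scan day 2 and 0.93 between arrays of the other days. That against dexamethasone was 1.35 and 0.71.

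IGF1R, the receptor tyrosine kinase of both ligands, was above background on all arrays. Levels were -2.34, -2.24, -2.75 and -2.37 in dexamethasone plus clenbuterol bulls, -3.01, -2.58, -2.78 and -3.61 in dexamethasone bulls, and -3.68, -4.24, -3.03 and -2.76 in control bulls. The lowest combination value (-2.75) and the highest control value (-2.76) almost touched, and dexamethasone bulls lay between and overlapped both. The change was 1.003 ± 0.313 against controls (SE, limma unadjusted p = 0.00749, adjusted p = 0.267) and 0.57 ± 0.31 against dexamethasone (limma adjusted p = 0.549). Dexamethasone minus control was 0.43 ± 0.31 (limma adjusted p = 0.624).

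For IGF1R the change against controls was 0.32 within scan day 2, which held 1 control. It was 1.28 between arrays of the other days, which held 1 combination array. A difference between scan days was not tested. With scan day as a block the change was 0.73, and with normexp background correction 0.49. Against dexamethasone it was 0.34 within scan day 2 and 1.24 between arrays of the other days, where each of these groups had 1 array. A further probe, described as a partial IGF1R precursor, was above background on 2 of 12 arrays, lay between -6.43 and -5.07, and was not tested.

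**Figure D3:**
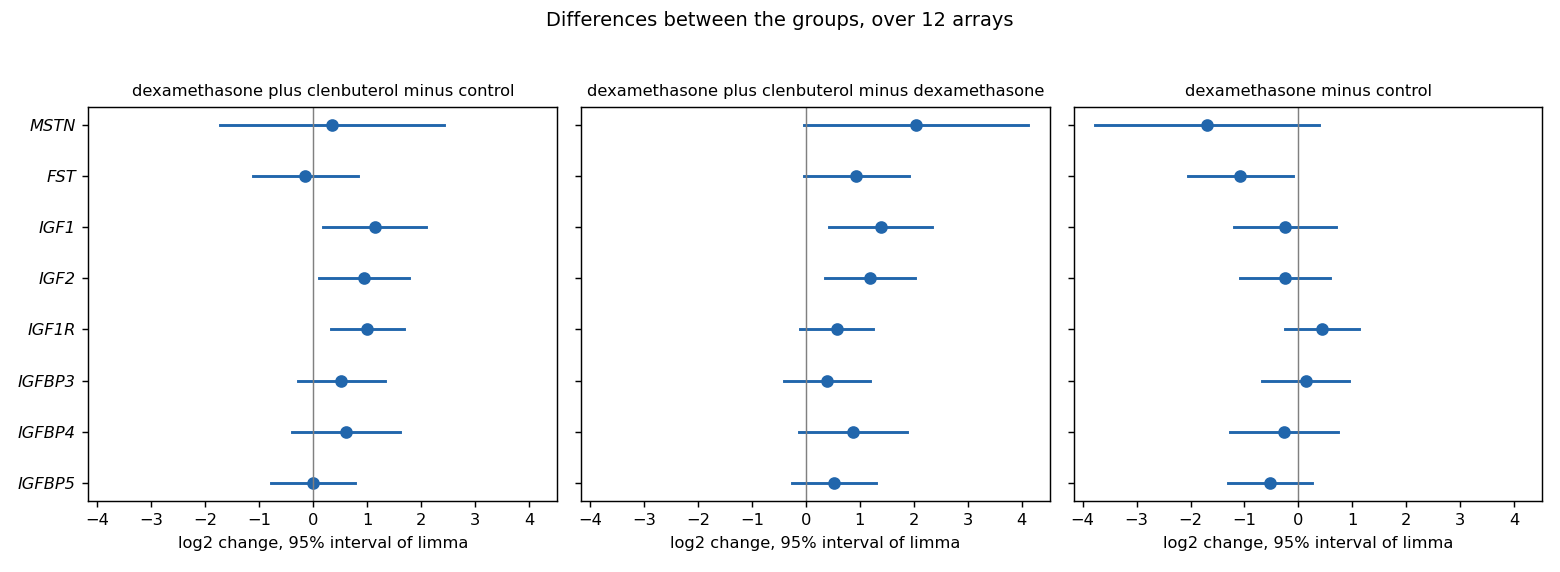
Log2 change (horizontal axis) of the 8 measured genes in the 3 comparisons named above the panels, as a point with the 95% interval of limma over 12 arrays. For IGF1, IGF2 and IGF1R against controls, IGF1 and IGF2 against dexamethasone, and FST in dexamethasone minus control the interval lies off 0, before any adjustment for 13716 genes.

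The binding proteins did not separate the groups. IGFBP3, the main carrier of IGFs in blood, had levels of -0.89, 0.32, -0.44 and 0.65 in dexamethasone plus clenbuterol, 0.47, -0.47, -0.96 and -0.96 in dexamethasone and -0.78, -0.71, -0.33 and -0.64 in control bulls. Its changes were 0.52 ± 0.37 (combination minus control), 0.39 ± 0.37 (combination minus dexamethasone) and 0.13 ± 0.37 (dexamethasone minus control), with limma adjusted p of 0.586, 0.749 and 0.926. Treated bulls ranged more widely than controls and overlapped them.

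IGFBP4, an inhibitor of IGF action that the protease PAPPA cleaves, had levels of -2.51, -1.24, -2.15 and -1.40 in dexamethasone plus clenbuterol bulls. Dexamethasone bulls had -1.39, -3.22, -2.72 and -3.48, and control bulls -2.97, -2.64, -2.61 and -1.54. Each group held at least 1 high animal, and all groups overlapped. The changes in the same order were 0.61, 0.88 and -0.27 (SE 0.46 each), with limma adjusted p of 0.615, 0.528 and 0.870.

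IGFBP5, the binding protein that muscle cells secrete during differentiation, was measured by a pair of probes. The brighter was assigned to IGFBP5 only through a match to the human gene in its description. On the brighter one levels were 3.69, 2.43, 3.72 and 2.56 in dexamethasone plus clenbuterol, 2.70, 2.21, 2.12 and 3.25 in dexamethasone and 3.68, 3.07, 2.89 and 2.75 in control bulls. The combination animals fell into a high pair and a low pair. The changes were 0.0044 ± 0.36 (combination minus control), 0.53 ± 0.36 (combination minus dexamethasone) and -0.52 ± 0.36 (dexamethasone minus control), with limma adjusted p of 0.998, 0.637 and 0.598, and the dimmer probe gave 0.076, 0.48 and -0.40.

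Some of these genes varied together across animals. IGF1 and IGFBP4 correlated over the 12 arrays with r = 0.773 (permutation p = 0.00412, adjusted 0.0385 over 28 pairs) and rho = 0.832 (permutation p = 0.00148, adjusted 0.0207). Without the 2 farthest arrays r was 0.598, with group means removed 0.689, and within scan day 2 (7 arrays) 0.648. IGFBP3 and IGFBP4 had r = 0.774 (permutation p = 0.00396, adjusted 0.0385) and rho = 0.727 (permutation p = 0.0101, adjusted 0.0638), with r = 0.651 without the 2 farthest arrays, 0.758 with group means removed and 0.687 within scan day 2. Among 13715 other genes, IGFBP4 ranked 90 by its r with IGF1, and IGF1 ranked 104 for IGFBP4. IGFBP4 ranked 89 for IGFBP3, and IGFBP3 ranked 100 for IGFBP4. The other 25 pairs, apart from MSTN with FST, had an adjusted permutation p above 0.05 for both measures.

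In the combination minus dexamethasone, limma again called 0 of 8 members at an adjusted p under 0.05, and 0.0146% of all genes. There IGF1 and IGF2 were 2 members of 8 with an unadjusted p under 0.05 and with all values above, where 11% and 2.52% of all genes did so. The median member change was 0.57 for the combination minus control, 0.91 for the combination minus dexamethasone and -0.26 for dexamethasone minus control, against all-gene medians of 0.032, 0.017 and 0.034. Of the 8 members, 7, 8 and 2 lay above 0 in these comparisons, where 53.8%, 52.3% and 54.6% of all genes did. The comparisons share samples, so these counts are not independent of each other, and 8 genes chosen with results known cannot be set against all genes by a test.

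**Figure D4:**
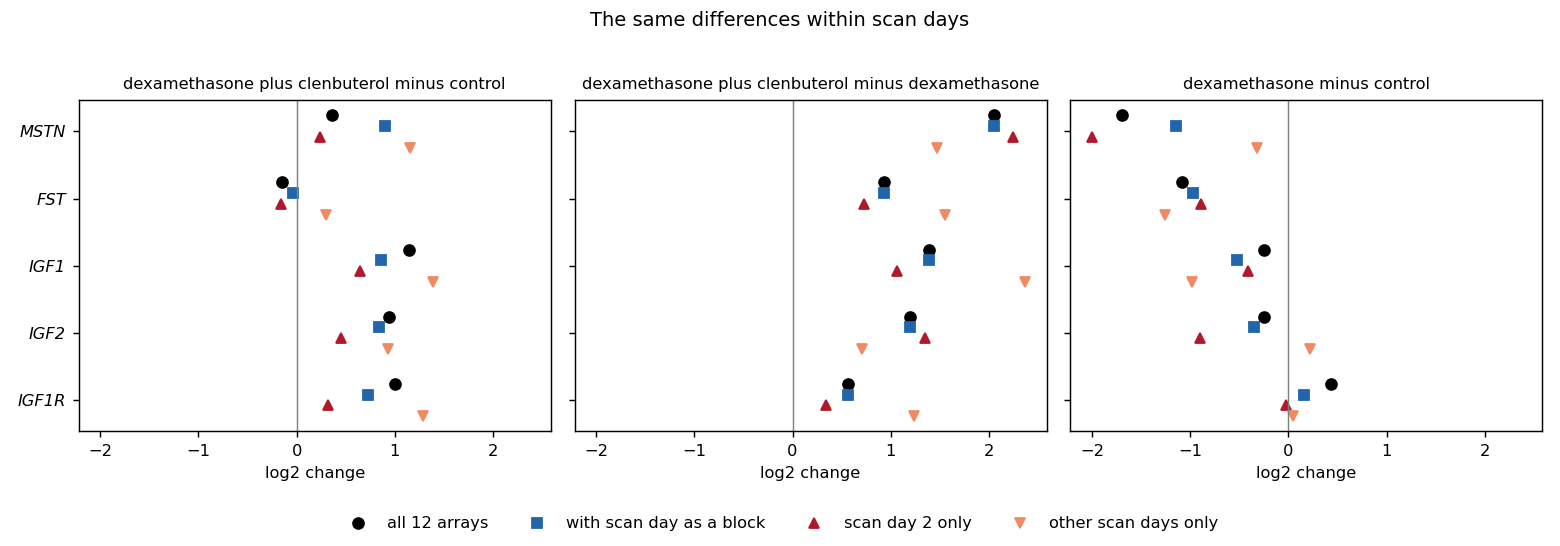
Log2 change (horizontal axis) of MSTN, FST, IGF1, IGF2 and IGF1R in the 3 comparisons, over all 12 arrays (circles), with scan day as a block of 2 levels (squares), within scan day 2 (upward triangles) and between arrays of the other scan days (downward triangles). Among the other scan days each group had its own day. IGF1, IGF2 and IGF1R lie above 0 at all settings drawn for the combination against controls, and IGF1R is smallest, at 0.32, within scan day 2.

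Around these members, 64 further genes of the pathways were followed, of which 53 were tested. On the activin and myostatin side (ligands, propeptide proteases, antagonists, receptors and SMADs), 31 of 32 had a probe, 28 were tested and limma called 0 in each comparison. Of the 28, 5 had an unadjusted p under 0.05 in the combination minus control (3 higher, 2 lower), 3 in the combination minus dexamethasone (all higher) and 6 in dexamethasone minus control (1 higher, 5 lower). On the IGF side (other binding proteins, receptors, growth hormone signalling and receptor adaptors), 31 of 32 had a probe, 25 were tested and 1 was called, lower, in dexamethasone minus control. Of the 25, 4 had an unadjusted p under 0.05 in the combination minus control (all higher), 7 in the combination minus dexamethasone (6 higher, 1 lower) and 5 in dexamethasone minus control (3 higher, 2 lower). Over all genes the shares with such a p were 12.1%, 11% and 12.3% in the same order of comparisons, and 0.612% were called in dexamethasone minus control.

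The called gene of the IGF side was PIK3R1, a regulatory subunit of the phosphoinositide 3-kinase that the IGF1 receptor activates. Its levels were 3.30, 2.65, 3.36 and 3.76 in bulls given both drugs, 2.68, 2.47, 1.95 and 2.68 in dexamethasone bulls, and 3.92, 3.56, 3.75 and 3.71 in control bulls. All dexamethasone values lay below all control values, as in 3.92% of all tested genes. PIK3R1 fell by 1.29 ± 0.24 on the log2 scale (SE, limma adjusted p = 0.0367), with changes of -1.14 and -0.76 on its other bright probes. The call was lost in 4 of 13 other settings, among them scan day as a block (limma adjusted p = 0.128), and in 8 of 12 fits that left out 1 array. The change itself stayed between -1.39 and -1.06 over all 25 alternatives, and was -1.12 with scan day as a block. The combination minus dexamethasone change was 0.82 ± 0.24 (limma adjusted p = 0.238).

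After PIK3R1, the smallest p-values in dexamethasone minus control belonged to 3 genes of the activin and myostatin side. DCN, decorin, a matrix proteoglycan that binds myostatin and TGF-beta and also a fibroblast marker here, had a log2 change of -1.20 ± 0.27 (SE, limma adjusted p = 0.0791). TGFBR3, the co-receptor betaglycan, had -1.23 ± 0.31 (limma adjusted p = 0.114), and FSTL1, a secreted follistatin-like glycoprotein, -1.18 ± 0.33 (limma adjusted p = 0.143). Levels of FSTL1 were 2.00, 0.65, 0.46 and 0.34 in dexamethasone bulls, against 1.99 to 2.12 in controls, and of TGFBR3 1.99, 0.66, 0.48 and 0.42, against 1.79 to 2.49. Bull 1 of the dexamethasone group was at the control level for both. It also had the highest fibroblast (1.85) and leukocyte (-1.79) marker levels of its group. Leukocyte marker levels of the other dexamethasone bulls ran from -3.79 to -3.05. The skeletal muscle marker level of bull 1 (6.82) was the lowest of all arrays, with the others between 7.17 and 8.01. Whether cell makeup had a part in these changes was not tested. DCN had a change of -0.70 on its other probe and TGFBR3 of -1.14. Between arrays of the other scan days the changes of DCN and TGFBR3 were both -1.81, and within scan day 2 -0.91 for DCN and -0.74 for TGFBR3. The calls turned on bull 1. Without it limma gave adjusted p of 0.0398 for DCN, 0.00429 for TGFBR3 and 0.00487 for FSTL1, and called 257 of all genes in place of 84. In the 11 fits that left out another array none of the 3 was called, with adjusted p of 0.0759 to 0.230, 0.125 to 0.312 and 0.138 to 0.368.

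In bulls given both drugs, H19 stood next to IGF2. H19 is a noncoding RNA transcribed from the same imprinted domain, and in mouse and human the genes share enhancers. Its levels were 7.93, 6.93, 6.28 and 6.73 in dexamethasone plus clenbuterol bulls, 6.00, 5.23, 4.91 and 4.80 in dexamethasone bulls, and 5.16, 4.82, 5.78 and 5.54 in control bulls. All combination values lay above all others. Of all tested genes, 4.51% lay wholly above controls and 2.52% wholly above dexamethasone. The log2 change was 1.64 ± 0.36 against controls (SE, limma adjusted p = 0.162) and 1.73 ± 0.36 against dexamethasone (limma adjusted p = 0.148). With slide as a random block, which cannot separate slide from treatment for the combination, the changes were 1.64 and 1.74. Without bull 1 of the dexamethasone group, its highest for H19, the change against dexamethasone was 1.99 (limma adjusted p = 0.0428), and all-gene calls were 74 in place of 2. In the 11 fits that left out another array H19 was not called (limma adjusted p = 0.149 to 0.309).

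STAT5B, which carries the growth hormone signal that induces IGF1, had log2 changes of 0.70 ± 0.22 against controls and 0.65 ± 0.22 against dexamethasone (limma adjusted p = 0.268 and 0.307). IGFALS, the acid-labile subunit that holds IGFs in the circulating complex, had 0.66 ± 0.18 against dexamethasone (limma adjusted p = 0.203). All its combination values, from -3.25 to -2.74, lay above those of dexamethasone bulls (-3.94 to -3.42), as in 2.52% of all tested genes. On the myostatin side SMURF1, a ubiquitin ligase of SMAD signalling, had 1.20 ± 0.29 against controls (limma adjusted p = 0.183), with its probe above background on 4 of 4 combination and 2 of 4 control arrays. LTBP3, which holds latent TGF-beta in the matrix, had 0.54 ± 0.17 (limma adjusted p = 0.268). With normexp the changes were 0.22 for SMURF1, 0.32 for LTBP3 and 0.31 for IGFALS, and within scan day 2 those against controls were 0.18 for LTBP3 and 0.37 for STAT5B.

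**Figure D5:**
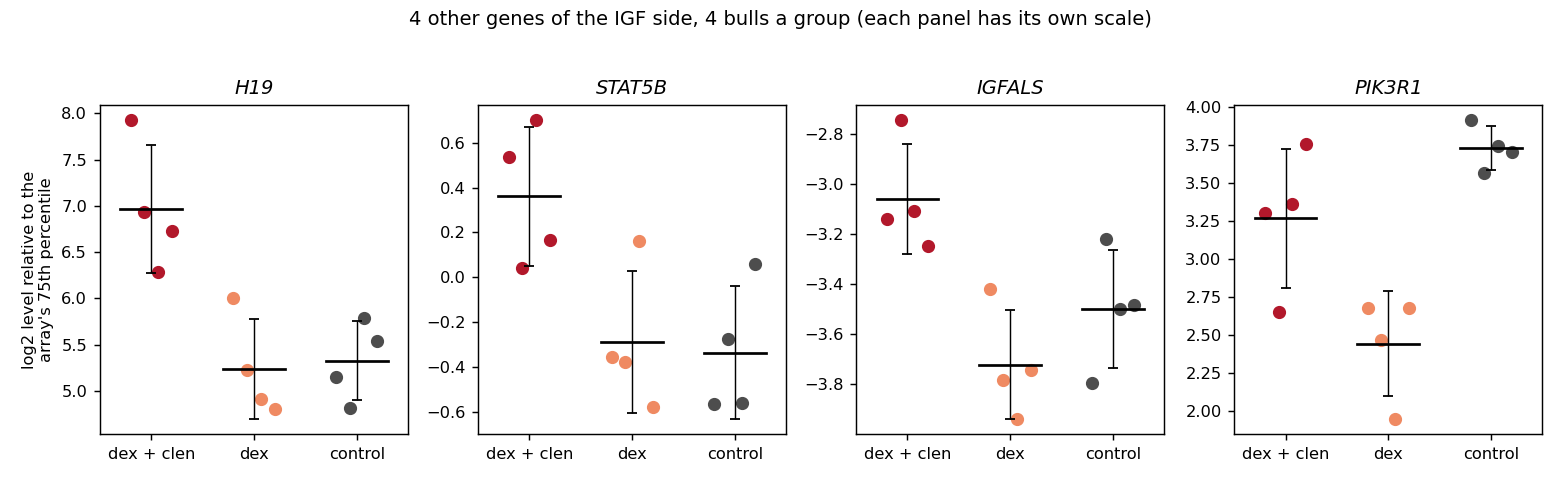
Log2 level of H19, STAT5B, IGFALS and PIK3R1 relative to each array's 75th percentile (vertical axes, one scale per panel) in dexamethasone plus clenbuterol (dex + clen), dexamethasone (dex) and control bulls, with 1 point per animal, the mean as a wide bar and ± 1 SD as whiskers (n = 4). The 4 H19 points of the combination, from 6.28 to 7.93, lie above all others, and the 4 PIK3R1 points of dexamethasone, from 1.95 to 2.68, lie below all controls.

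The genes with a symbol whose levels followed each member most closely over the 12 arrays, by Pearson r, are given as a description. The other members and genes without a symbol were left out of this ranking, so such genes may follow a member more closely. They were FILIP1L (0.897) and EBF3 (0.887) for MSTN, MEIS1 (0.933) and PARN (0.928) for FST, SEPT6 (0.937) and CDC42SE1 (0.911) for IGF1, and MAGIX (0.933) and UXT (0.932) for IGF2. For IGF1R they were CAPNS1 (0.958) and CCM2 (0.943), for IGFBP3 TMEM59L (0.939) and IL1R1 (0.921), for IGFBP4 THBS2 (0.928) and MEST (0.909), and for IGFBP5 MRC1 (0.916) and MED11 (0.909). THBS2, a matrix protein, and MRC1, the mannose receptor of macrophages, are made largely by cells other than muscle fibres. The arrays share group, scan day and cell makeup across genes.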

How the data were processed

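Per the labels' protocols, total RNA was extracted with Trizol, column-purified and labelled with Cy3. The deposited scanner files hold spot intensity on a linear scale, made with Agilent Feature Extraction 9.5.1.1, per the file headers. The authors also deposited a table of linear intensity values, whose order of spots matches that of the scanner signal (Spearman rho of 0.999996 or above), with medians of 137.25 to 181.167 and 1 shared maximum. Its normalization was not given in the sources used here, and it served as an alternative.

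The processed signal was put on the log2 scale and centred on each array's 75th percentile, outlier spots were dropped and spots of a probe averaged. Of 21475 probes, 14702 were well above background on at least 4 of 12 arrays. Where several such probes mapped to a gene (893 genes), the brightest on average was used, leaving 13716 genes. Names came from the files, for 3426 probes from a match to a human gene in the description. The files' names were updated through a RefSeq table (ARS-UCD2.0), from which only names were taken.

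One limma 3.58.1 fit in R 4.3.3 (lmFit with 3 group means over 12 arrays, then eBayes) gave all contrasts, adjusted by Benjamini-Hochberg over all genes, with calls made below 0.05. The fit was also run on simulated data with independent noise and no slide or scan day effect, so that run does not bear on such effects. Tests are two-sided, and correlations used 100000 permutations. These shuffled values over all 12 arrays without regard to group or scan day, so their p-values also take in differences between groups and days. No p was computed for r with group means removed. The members, pathway lists, markers and tests were chosen with earlier results of these data known. Besides all members, the text names called pathway genes and the 4 pathway genes of smallest p per contrast. It also names the 2 genes with a symbol, other than members, that were most correlated with each member. Replicate numbers follow accession order and only name animals. For dexamethasone replicate 4 the label and the file header name different slides, and the header was used.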

Additional observations from a re-analysis of the deposited data

Results flagged for a closer look

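Within groups of 4 arrays, 33 sets of member values were searched for 1 array far from the other 3, by Dixon's criterion. Chance meets this criterion in about 1 set in 20, and 4 sets met it. The sets are not independent, since some are probes of the same gene and MSTN and FST varied together. Of the 4, 3 were the same animal, bull 2 of the dexamethasone plus clenbuterol group. Its MSTN level was -6.88, not well above background, with the other 3 bulls of its group between -2.82 and -2.04. Its FST level was -3.75 on the brighter probe, with the others between -1.82 and -1.48, and -4.61 on the dimmer probe, with the others between -2.60 and -2.20. In the same muscle the mean skeletal muscle marker level was 7.17, against 7.70 to 8.01 in the other 3 bulls of the group. The adipocyte marker level was -5.60, against -3.62 to -2.99, over 4 tested genes, with ADIPOQ and LEP below the filter. The red blood cell marker level was 0.54, against -2.53 to -0.88, over 2 tested genes, with ALAS2 and SLC4A1 below the filter. In the adipocyte list and in the red blood cell list only 1 gene was above background on all arrays. Fibroblast (1.84) and leukocyte (-2.65) marker levels lay within the range of the other bulls of the group. Those of endothelial, satellite cell and Schwann cell markers lay outside it. Its IGF1 and IGF2 levels lay within the range of the others. The part of these cell types in the values was not tested. The dim IGF2 probe had a level of -4.87 in bull 4 of the dexamethasone plus clenbuterol group, with the others between -4.48 and -4.40.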

How the results depend on the processing

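None of the 24 member changes (8 genes in 3 comparisons) passed the threshold in any of 25 alternative settings, the lowest limma adjusted p being 0.0878. Of 600 recomputed changes 26 took the opposite direction, and 12 of the 24 results had no such case, among them IGF1, IGF2 and IGF1R in the combination minus control. In dexamethasone minus control, opposite directions came from the other scan days for IGF2 (0.22), IGFBP3 (-0.36) and IGFBP5 (0.040), and from scan day 2 for IGF1R (-0.026). In the combination minus control they came from the other scan days for FST (0.30) and IGFBP5 (-0.65), from scan day 2 for IGFBP4 (-0.43), and for IGFBP5 also from normexp (-0.015), quantile normalization (-0.057), the authors' deposited table (-0.049) and slide as a random block (-0.011). In the combination minus dexamethasone they came from scan day 2 for IGFBP3 (-0.016) and the other scan days for IGFBP5 (-0.69). Leaving out 1 array moved dexamethasone minus control from -0.57 to 0.044 for IGF1, from -0.54 to 0.17 for IGF2, from -0.19 to 0.29 for IGFBP3 and from -0.70 to 0.035 for IGFBP4, and the combination minus control from -0.17 to 1.44 for MSTN, from -0.38 to 0.37 for FST and from -0.20 to 0.23 for IGFBP5. The cause of these reversals was not tested.

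Over all genes, limma called 84 in dexamethasone minus control (1690 at an unadjusted p under 0.05), 25 with no filter on dim probes, 13 with scan day as a block and 0 within scan day 2 or the other days, with fewer arrays, where 1091 and 2171 genes had an unadjusted p under 0.05. Leaving out 1 array gave 24 to 257, the most without dexamethasone replicate 1. In the combination minus control, 6 calls became 3 with quantile normalization or only the groups compared, 2 with probes averaged and 0 with no filter, the stricter filter, either block or 1 set of scan days (905 to 1671 at an unadjusted p under 0.05), and 0 to 11 without 1 array. In the combination minus dexamethasone, 2 calls became 1 with normexp, 0 with no filter, quantile normalization, the authors' table, averaged probes, only the groups compared, either block or 1 set of scan days (1261 to 1591 at an unadjusted p under 0.05), and 0 to 74 without 1 array. No paired analysis was possible because the labels number no animals across groups. Signal over background limits MSTN and the dimmer IGF2 and IGF1R probes most.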
